A study of Mus musculus with 8 samples.

Results

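The genes of the cytosolic ribosomal proteins were described in mouse tumour cells that FACS had separated by how strongly they used the promoter of Gins1, which encodes the DNA replication factor PSF1. Members were the genes whose symbol in the platform annotation starts with Rpl or Rps and a number, with Rpsa, Rplp0, Rplp1 and Rplp2, without S6 kinases and pseudogenes. The rule found 50 genes, measured by 106 probe sets, of the 18193 genes and 45101 probe sets of the array. Of a gene's probe sets, the one brightest on average over the 8 arrays stood for it, and 47 of the 50 exceeded a log2 signal of 5 on at least 2 arrays and were tested. Rpl3l, Rps16 and Rps4l stayed below it. Symbols decided membership, and some of them need a remark: Rps19bp1 encodes a protein that binds RPS19 and is not itself a ribosomal protein, and RefSeq annotates Rps4l as a pseudogene. Rpl7l1 is a member by its symbol, while its yeast counterpart acts in ribosome assembly. A further 31 ribosomal protein genes are named on the array only by probe sets that also list other genes, and these are not members.

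The cells came from Lewis lung carcinoma (LLC) and from the colon carcinoma line colon26, each with a stable transgene in which the mouse PSF1 promoter drives EGFP. Cells of both lines had been inoculated under the skin of mice, LLC tumours were taken at 4 weeks and colon26 tumours at 2 weeks, and the dissociated cells were sorted into EGFP-high and EGFP-low. The groups were LLC EGFP-high, LLC EGFP-low, colon26 EGFP-high and colon26 EGFP-low, with 2 arrays each, numbered 1 and 2 and called biological replicates. All groups carry the reporter, EGFP stands for promoter activity, not for PSF1 itself, and the labels give neither the host strain nor whether the lines are clones. They also do not say whether arrays 1 and 2 came from separate tumours, so the spread behind the p-values may be technical. For EGFP contrasts it is how far the EGFP-high minus EGFP-low change differs between the numbers within a line. Level shifts between the numbers are removed, and the spread is moderated by that of all genes tested. Line and time in the mouse cannot be told apart.

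The ribosome translates mRNA into protein. Its small subunit decodes the mRNA and its large subunit joins the amino acids. The genes of both subunits are expressed in nearly all cells, and most of their mRNAs begin with a run of pyrimidines, the 5′ terminal oligopyrimidine (TOP) motif, through which growth signals acting on mTOR control their translation without a matching change in mRNA level. Several genes have a paralog with restricted or variable expression, such as Rpl39l beside Rpl39 and Rpl22l1 beside Rpl22.

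The start sites of 5 members, among them Rpl22l1, whose level separates the lines, are shown with the run of pyrimidines at or near the start. In Rps27, Rpl38, Rps6 and Rpl35 the annotated start lies within the run. In Rpl22l1 the annotated start is a g and the run begins after it. Whether these mRNAs carry a TOP motif was not tested. Each sequence is 15 bases before to 15 after the start in RefSeq on GRCm38.p6, 5′ to 3′ on the gene's strand, with the longest run of C and T in capitals.
Rps27, chr3:90213634-90213663, minus strand: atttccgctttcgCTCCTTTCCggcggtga
Rpl38, chr11:114668565-114668594, plus strand: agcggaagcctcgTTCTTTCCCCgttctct
Rps6, chr4:86857353-86857382, minus strand: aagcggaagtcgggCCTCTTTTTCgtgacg
Rpl35, chr2:39005117-39005146, minus strand: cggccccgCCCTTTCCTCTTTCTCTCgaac
Rpl22l1, chr3:28805493-28805522, plus strand: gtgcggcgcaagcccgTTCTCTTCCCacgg

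Promoters of 44 of the 50 members were in the RefSeq table, in 52 windows of 250 bases before to 50 after a start, against 32851 windows in all. A run of 7 or more C or T within 30 bases of the start was in 61.5% of the members' windows, against 33.8% of all windows. The core CCGGAA of GABP sites, on either strand, was in 53.8% of the members' windows and in 14.9% of all. The SP1 box GGGCGG, on either strand, was in 53.8% of the members' windows and 35.7% of all, and the YY1 core AAGATGGC, on either strand, in 7.69% of the members' windows and 2.75% of all. The median number of CG dinucleotides in the 250 bases before the start was 18 in the members' windows and 6 in all windows. These are matches of letters, and binding was not measured.

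The gene whose promoter drives the reporter, Gins1, rose in EGFP-high cells by 1.28 ± 0.21 in LLC and by 1.07 ± 0.21 in colon26 (log2, SE; limma adjusted p = 0.0033 and 0.017). Of 9 proliferation genes tested, 8 rose in LLC and 6 in colon26. Genes listed as markers of macrophages and fibroblasts moved with the sort too. Of 13 macrophage markers tested, 10 fell in LLC and 11 in colon26, and the summed linear signal of the list was 865 to 979 in LLC EGFP-high against 2525 to 2772 in LLC EGFP-low, and 1503 to 2297 in colon26 EGFP-high against 6865 to 11078 in colon26 EGFP-low. Of 10 fibroblast markers, 9 fell in LLC and 4 in colon26. The fibroblast sums were 10262 to 10816 in LLC EGFP-high against 32164 to 48124 in LLC EGFP-low. In colon26 the sums were 33465 to 34882 in EGFP-high against 39869 to 49153 in EGFP-low cells. Those of colon26 EGFP-high lay within the range of LLC EGFP-low, and whether tumour cells themselves express these genes was not tested. Of 14 macrophage markers on the array, 4 lay at or below 5 on both arrays in each EGFP-high group, 2 in LLC EGFP-low and 0 in colon26 EGFP-low; their part in the results below was not tested. Of 5 lung epithelium markers, 4 lay at or below 5 in all groups, LLC included, and of 6 colon epithelium markers 4 did so in colon26. The colon list still summed to 3715 to 5055 in colon26 EGFP-high, against 115 to 134 in LLC EGFP-high. Of the 2 colon markers above the filter, Krt20 was the brighter (mean over the 8 arrays 7.86, against 5.39 for Cdx2). Cdx2 hardly differed between the lines in EGFP-high cells (LLC minus colon26 −0.06 log2, limma adjusted p = 0.84). The difference in the colon sum therefore rests on Krt20. The 2 arrays of each group differed in RNA representation: the median 3′ minus 5′ difference of 4 control transcripts was 2.41 to 2.70 log2 on arrays numbered 1 and −0.01 to 0.35 on those numbered 2. EGFP-high and EGFP-low arrays were compared within pairs of the same number, a pairing that came with the definition of the groups and not from this difference. The median log2 signal over all probe sets was 4.76 to 5.02, and precision is limited by the number of arrays.

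The first comparison asked whether ribosomal protein mRNAs differed between EGFP-high and EGFP-low cells. None of the 47 genes passed limma's adjusted p of 0.05 in LLC, in colon26 or in the mean of the lines, while 11.0%, 3.77% and 13.0% of the 12177 genes tested did (4.98% rose and 6.04% fell in LLC, 2.18% and 1.58% in colon26, and 7.47% and 5.57% in the mean of the lines). An unadjusted p under 0.05 was reached by 2 members in LLC, 1 in colon26 and 3 in the mean of the lines, and the smallest adjusted p was 0.16, 0.15 and 0.10. The median change of the members was 0.02 log2 in LLC, 0.04 in colon26 and 0.03 in the mean of the lines, against 0.04, 0.08 and 0.04 over all genes tested. In the mean of the lines, changes ran from −0.14 in Rps27 to 0.41 in Rpl7l1. In bulk RNA of sorted cells, fewer cells of a type and less RNA per cell cannot be told apart, and RMA sets the arrays to a like overall level, so a change in total RNA per cell is not measured.

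The changes of the members lay close together. The median absolute change was 0.079 log2 in LLC and 0.068 in colon26, against 0.233 and 0.207 over all genes tested, and 0.059 against 0.172 in the mean of the lines. The 95% interval of the change lay within ±0.5 log2 for 27 of 47 genes in LLC, 32 in colon26 and 41 in the mean of the lines, and within ±1 for 47, 45 and 47. The median half-width of that interval was 0.39 log2 in each line and 0.28 in the mean of the lines, so smaller changes had an interval that held 0 for a typical member, and a call, which needs the p adjusted over all genes, took a larger change. Signals were high: 35 of the 47 genes had a mean above 12 on a scale that ended at 14.5, and compression of differences near that end was not tested.

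**Figure D1:**
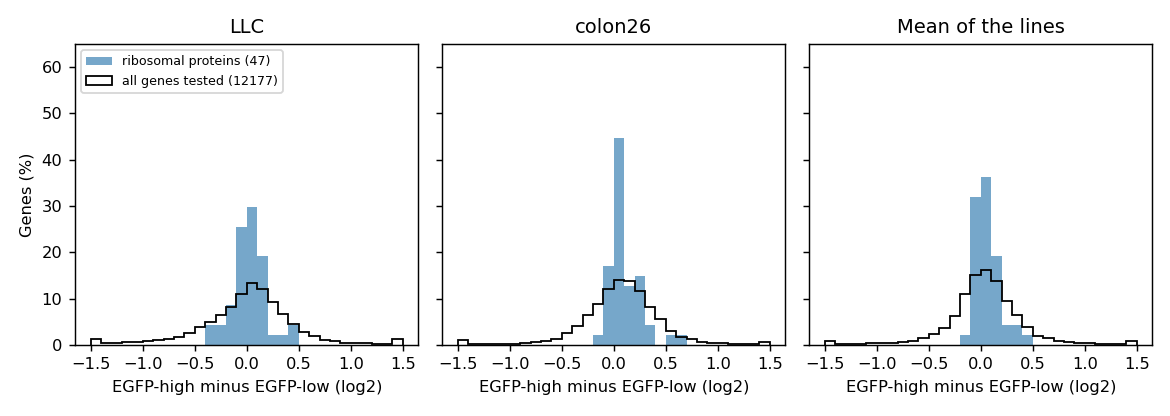
Histograms of EGFP-high minus EGFP-low (log2 signal, bins of 0.1) for the 47 ribosomal protein genes (filled) and the 12177 genes tested (line), as percent of genes, in LLC, colon26 and the mean of the lines; changes beyond 1.5 are counted in the end bins. The members' median absolute change was 0.059 in the mean of the lines, against 0.172 over all genes.

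Medians were near 0 in both subunits. The 25 tested genes assigned to the large subunit by symbol, Rpl7l1 included, had a median change of 0.03 log2 in LLC and 0.07 in colon26. The 21 small-subunit genes had 0.00 and 0.03. By role, the 5S RNP, which assembles with the large subunit and, when free, binds Mdm2 and so raises p53, was represented by Rpl11. Rpl11 had log2 signals of 12.63 and 13.24 in LLC EGFP-high, against 12.65 and 13.84 in LLC EGFP-low, and 12.26 and 13.11 in colon26 EGFP-high, against 12.27 and 12.69 in colon26 EGFP-low. The arrays numbered 1 hardly differed in either line, and those numbered 2 differed in opposite directions, by −0.60 in LLC and 0.42 in colon26. Rplp0 and Rplp2, proteins of the stalk that recruits elongation factors, had mean changes of 0.13 ± 0.12 and −0.05 ± 0.12 over the lines (log2, SE; adjusted p = 0.55 and 0.84). Rps7, Rps10, Rps19, Rps24, Rps26 and Rpl11 were the 6 tested genes of a list, not a complete one, of genes whose mutation causes Diamond-Blackfan anaemia in humans; none passed in either line, and their median change was −0.01 in LLC and 0.03 in colon26. Rps6, the substrate of the S6 kinases, had a change of 0.15 ± 0.18 in LLC and of 0.25 ± 0.18 in colon26 (log2, SE; adjusted p = 0.68 and 0.51).

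Rpl7l1 and Rps19bp1 had the highest values in the mean of the lines. Rpl7l1, a gene like Rpl7 whose yeast counterpart acts in ribosome assembly, had signals of 9.26 and 9.18 in LLC EGFP-high, against 8.87 and 8.64 in LLC EGFP-low, and 8.74 and 8.67 in colon26 EGFP-high, against 8.75 and 7.96 in colon26 EGFP-low. EGFP-high was above EGFP-low in both LLC pairs and in colon26 pair 2, and the colon26 arrays numbered 1 differed by −0.01. Its mean change was 0.41 ± 0.15 (log2, SE; adjusted p = 0.10). A second Rpl7l1 probe set rose by 0.90 in LLC and by 0.68 in the mean of the lines when every probe set was tested by itself (adjusted p = 0.017 and 0.012). The remaining one had changes of 0.59 in LLC and 0.41 in the mean of the lines and did not pass (adjusted p = 0.12 in both). Rpl7l1 was the 1 member called in the mean of the lines when the gene was the mean of its probe sets (0.50, adjusted p = 0.035) or without the colon26 arrays numbered 1 (0.59, adjusted p = 0.050). Over all alternatives its adjusted p ran up to 0.84, the value without the replicate block.

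Rps19bp1 had signals of 9.24 and 10.07 in LLC EGFP-high, against 8.81 and 9.58 in LLC EGFP-low, and 8.001 and 9.05 in colon26 EGFP-high, against 7.98 and 8.56 in colon26 EGFP-low. EGFP-high was above EGFP-low in all 4 pairs, by 0.02 to 0.49, and the mean change of 0.36 ± 0.13 did not pass (log2, SE; adjusted p = 0.11). Rpl12, a protein at the base of the stalk, had 9.33 and 9.22 in colon26 EGFP-high, against 9.03 and 8.27 in colon26 EGFP-low, a change of 0.62 ± 0.20 (adjusted p = 0.15). In LLC its signals were 9.14 and 8.67 in EGFP-high cells, against 9.13 and 8.64 in EGFP-low cells. The test of the difference between the lines gave −0.60 ± 0.29 (LLC minus colon26; adjusted p = 0.37). Rpl27a had the widest spread: its 2 LLC pairs gave changes of 0.30 and −1.01 and its colon26 pairs 0.21 and 0.81, so the pairs of LLC disagreed in sign. No member passed the test of the difference between the lines, which 1.41% of all genes passed (0.427% with a higher and 0.985% with a lower change in LLC); 0 members had an unadjusted p under 0.05 in it.

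**Figure D2:**
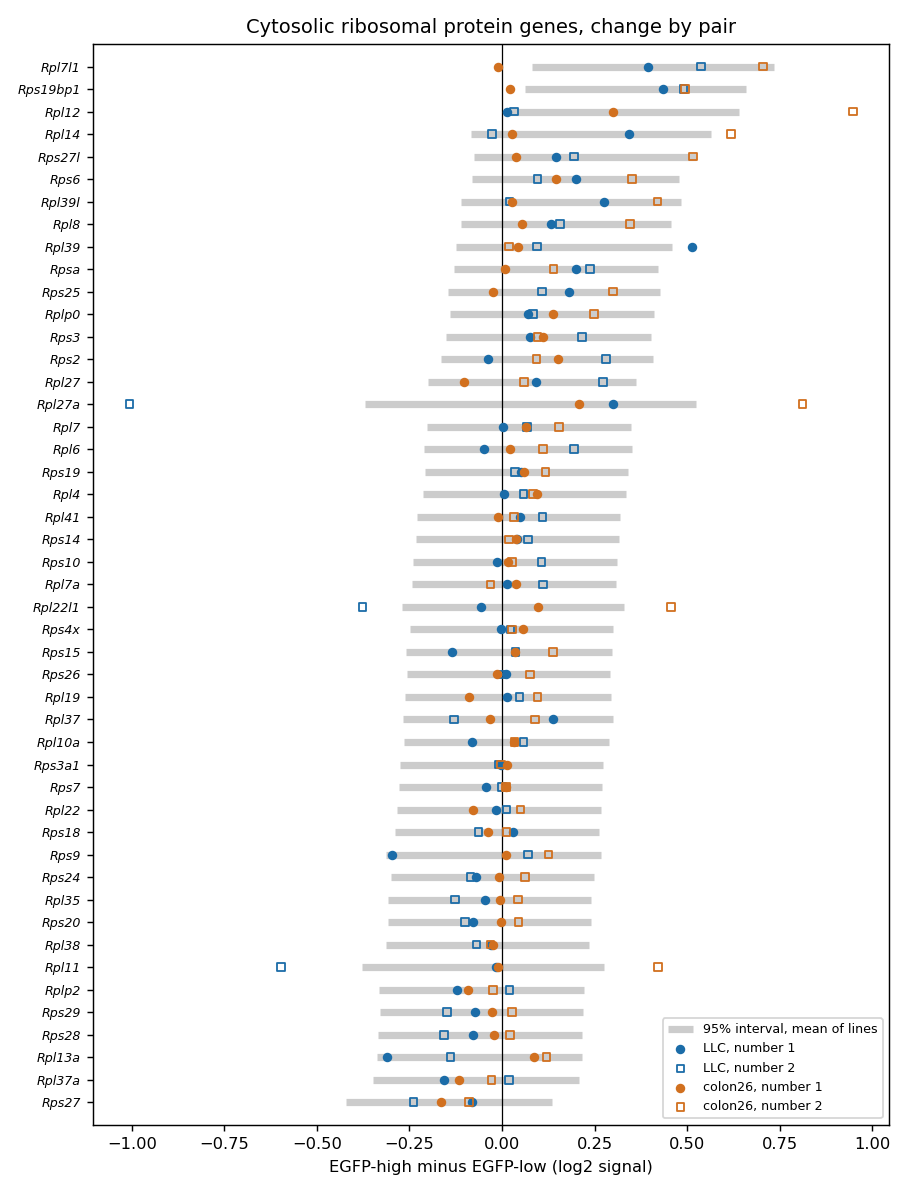
EGFP-high minus EGFP-low (log2 signal) of each of the 47 genes in the 4 pairs of arrays, with the 95% interval of the mean of the lines as a grey bar, genes ordered by that mean. Most points lie near 0; Rpl7l1 at 0.41 and Rps19bp1 at 0.36 head the list, and Rpl27a spreads from −1.01 to 0.81.

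Direction was counted without a test, and the shares of all genes given beside it are not split by direction. Over all genes tested the median change was above 0 in every pair. It was 0.05 and 0.03 in LLC pairs 1 and 2, and 0.02 and 0.18 in colon26 pairs 1 and 2. In LLC 8 of 47 genes had EGFP-high and EGFP-low arrays that did not overlap, 4 higher and 4 lower in EGFP-high, while 32.0% of all genes tested were apart; in colon26 5 of 47 were apart, all higher, while 21.0% of all genes were. One sign in 4 of 4 pairs was found in 16 of 47 genes, 14 higher and 2 lower in EGFP-high, near the 30.6% of all genes with one sign in 4 of 4. The 14 include Rpl39l, whose LLC signals all lay below the filter of 5 and have no reliable order. Rpl38 and Rps27 were the 2 lower ones, and Rps27, a small-subunit protein, had the lowest mean change, −0.14 ± 0.12 (log2, SE; adjusted p = 0.52). The other low values of the mean were −0.07 in Rpl37a and −0.06 in Rpl13a, which gave −0.23 ± 0.18 in LLC and 0.10 ± 0.18 in colon26 (adjusted p = 0.49 and 0.80). Among the genes with several probe sets above the signal filter, 7 had probe sets with mean changes of opposite sign (Rpl7, Rpl13a, Rpl22, Rpl35, Rpl37a, Rps9 and Rps18), ranging from −0.33 to 0.32.

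Genes that act in building ribosomes were examined beside those that encode their proteins. Of 38 ribosome biogenesis genes tested, 6 rose in EGFP-high cells of LLC, 0 in colon26 and 12 in the mean of the lines, and none fell, with medians of 0.48, 0.29 and 0.37 log2; 4.98%, 2.18% and 7.47% of all genes rose. These calls rest on comparing arrays within pairs: without the replicate block 0% of all genes tested passed in LLC, 0.0246% in colon26 and 0.0575% in the mean of the lines, in either direction. In the mean of the lines Nhp2, a protein of the box H/ACA RNPs that guide rRNA pseudouridylation, rose by 0.67 ± 0.13 (log2, SE; adjusted p = 0.0088). Fbl, the rRNA methyltransferase fibrillarin, rose by 0.65 ± 0.14 (adjusted p = 0.012), Nolc1, a nucleolar chaperone of these RNPs, by 0.67 ± 0.14 (adjusted p = 0.013), and Wdr12, of the PeBoW complex in large-subunit maturation, by 0.63 ± 0.14 (adjusted p = 0.014). Of 76 mitochondrial ribosomal protein genes tested, 7 rose in LLC, 0 in colon26 and 12 in the mean of the lines, none fell, and the medians were 0.42, 0.26 and 0.31. Of 11 genes of RNA polymerase I, which transcribes rRNA, 1 rose in the mean of the lines, Polr1e (0.54 ± 0.14, adjusted p = 0.029).

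Other genes of translation were mostly not called. Fau, which encodes ribosomal protein S30 fused to a ubiquitin-like protein, had a change of 0.01 ± 0.13 in the mean of the lines (log2, SE; adjusted p = 0.98). Of 16 other genes with TOP mRNAs, Eif3l rose in LLC (0.68 ± 0.18, adjusted p = 0.036), and none passed in colon26 or in the mean of the lines, where their median change was 0.04. Of 19 genes of translation initiation and its control, Eif4e, the cap-binding protein, rose in the mean of the lines (0.51 ± 0.13, adjusted p = 0.030), and Tsc1, an inhibitor of mTOR, fell in LLC (−0.75 ± 0.19, adjusted p = 0.029).

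The second comparison set LLC against colon26 within each sort. In EGFP-high cells 7 of 47 members passed, 2 higher and 5 lower in LLC, and in EGFP-low cells 10 passed, 5 higher and 5 lower. Over all genes tested 39.2% passed in EGFP-high cells (15.7% higher and 23.5% lower in LLC) and 46.2% in EGFP-low cells (21.0% higher and 25.2% lower). After median centring the splits were 4 higher and 3 lower in EGFP-high cells and 8 higher and 3 lower in EGFP-low cells, and after quantile normalization 5 and 5 in EGFP-high cells. Without the replicate block 2 and 3 members passed, all lower in LLC, and without LLC replicate 2 the count in EGFP-low cells was 5. The median difference of the members was −0.06 log2 in EGFP-high and −0.02 in EGFP-low cells, against −0.09 and −0.07 over all genes. Groups did not overlap for 16 of 47 members in EGFP-high cells, while 52.0% of all genes were apart, and for 17 in EGFP-low cells, against 52.3%. Carcinoma epithelium markers summed to 6701 to 7819 in LLC EGFP-high against 222 to 232 in colon26 EGFP-high. Of 4 tested, 3 were higher in LLC in EGFP-high cells, led by Krt8 (7.31), and 3 were higher and 1 lower in EGFP-low cells. Of the 8 on the array, 4 lay at or below 5 on both arrays in LLC EGFP-high. Of 13 macrophage markers, 10 were lower in LLC in EGFP-low cells, while 2 were higher and 1 lower in EGFP-high cells. Of 10 fibroblast markers, 7 were lower and 1 higher in LLC in EGFP-high cells, and 5 lower and 2 higher in EGFP-low cells, with the sums given above; the part of these markers in these differences was not tested.

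**Figure D3:**
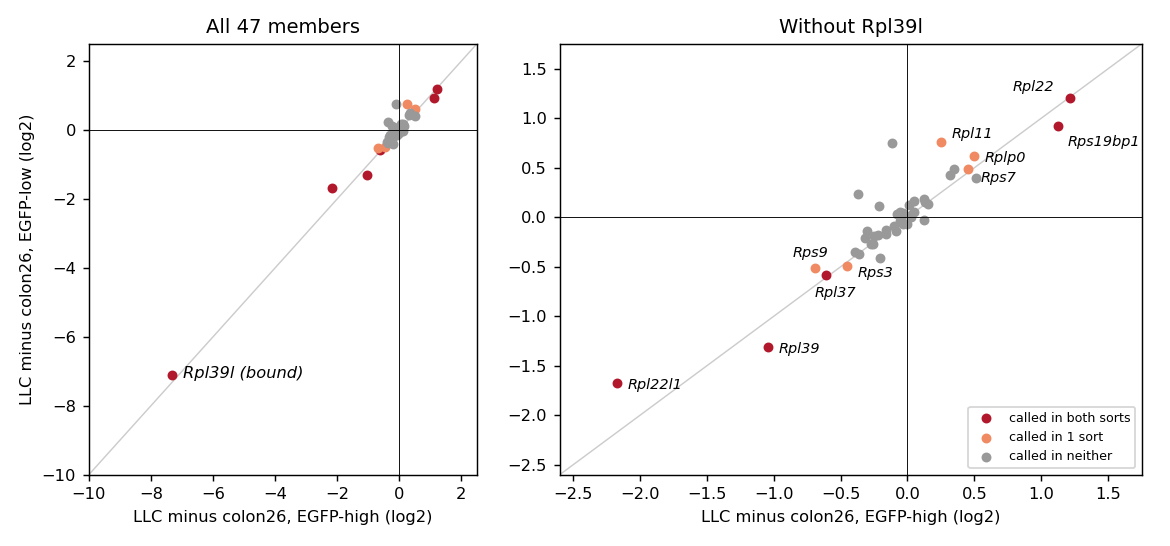
LLC minus colon26 (log2 signal) in EGFP-high cells (horizontal) and EGFP-low cells (vertical) for the 47 genes; the left panel shows all, the right panel the range without Rpl39l, and colours mark in how many sorts limma's adjusted p was under 0.05. Rpl39l, below the signal filter in LLC, is drawn at its bound with LLC raised to 5, −7.32 and −7.10, the true difference being unknown beyond it; Rpl22l1 stands at −2.17 and −1.68, and Rpl22 at 1.22 and 1.21.

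Rpl39l was the member that separated the lines most. RPL39L is a paralog of RPL39, a small protein at the exit tunnel of the large subunit, and is best known from the testis. Its signals were 3.79 and 3.19 in LLC EGFP-high, against 12.21 and 12.43 in colon26 EGFP-high, and 3.51 and 3.17 in LLC EGFP-low, against 12.18 and 12.01 in colon26 EGFP-low. Every LLC array was below the signal filter and every colon26 array near 12. With LLC raised to the filter of 5, the signal was at least 159.9-fold lower in LLC in EGFP-high and at least 137-fold lower in EGFP-low cells. The gene passed the filter only through colon26, so that it had to differ, and no p-value is given for this difference. Within colon26 the EGFP-high minus EGFP-low difference was 0.22 ± 0.19 (log2, SE; adjusted p = 0.58). Its calls between the lines are included in the counts above and give no further support.

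Rpl39 was lower in LLC as well. Its signals were 6.51 and 6.71 in LLC EGFP-high, against 7.60 and 7.70 in colon26 EGFP-high, and 6.00 and 6.62 in LLC EGFP-low, against 7.55 and 7.69 in colon26 EGFP-low. All LLC arrays were below all colon26 arrays, and the difference was −1.04 ± 0.19 in EGFP-high and −1.31 ± 0.19 in EGFP-low cells (log2, SE; adjusted p = 0.0034 and 0.00098). Without the replicate block the adjusted p in EGFP-high cells was 0.063. Whether the Rpl39 and Rpl39l probe sets bind the other gene's transcript was not tested.

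Rpl22 and its paralog Rpl22l1 differed between the lines in opposite directions. RPL22 is an RNA-binding large-subunit protein that in mouse cells represses Rpl22l1. Rpl22l1 had 10.46 and 10.70 in LLC EGFP-high, against 12.68 and 12.81 in colon26 EGFP-high, and 10.51 and 11.07 in LLC EGFP-low, against 12.58 and 12.36 in colon26 EGFP-low. LLC was lower on every array, with a difference of −2.17 ± 0.21 in EGFP-high and −1.68 ± 0.21 in EGFP-low cells (log2, SE; adjusted p = 0.00011 and 0.00049). Rpl22 had 13.92 and 13.64 in LLC EGFP-high, against 12.88 and 12.24 in colon26 EGFP-high, and 13.93 and 13.63 in LLC EGFP-low, against 12.96 and 12.19 in colon26 EGFP-low. It was higher in LLC by 1.22 ± 0.19 and 1.21 ± 0.19 (log2, SE; adjusted p = 0.0016 in both). The other two Rpl22 probe sets were also higher in LLC, by 2.16 and 1.59 in EGFP-high and by 2.24 and 2.15 in EGFP-low cells. Without the replicate block the adjusted p of Rpl22 was 0.089 and 0.079. Rps27l, the paralog of Rps27 and a p53 target, had line differences of −0.08 ± 0.22 and 0.03 ± 0.22 (adjusted p = 0.81 and 0.92), and EGFP-high minus EGFP-low changes of 0.17 ± 0.19 in LLC and 0.28 ± 0.19 in colon26 (adjusted p = 0.65 and 0.49).

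**Figure D4:**
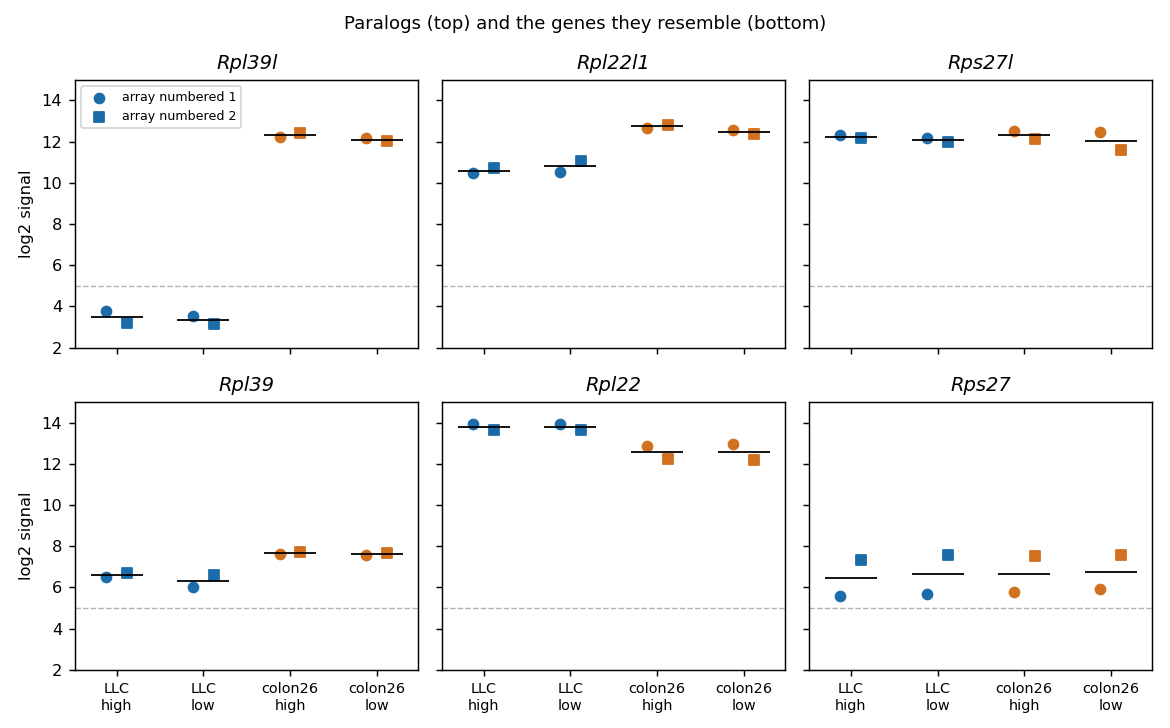
Log2 signal of 3 paralogs (top) and of the genes they resemble (bottom) on each of the 8 arrays, with the group mean as a bar and the signal filter of 5 dashed; circles are arrays numbered 1 and squares those numbered 2. Rpl39l lies below 4 in LLC and near 12 in colon26, and Rps27 is higher on the arrays numbered 2 in every group; levels are not comparable between genes.

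The 250 bases before the start are shown for Rpl39l and Rpl22l1, whose levels separate the lines, and for Rpl39 as the gene Rpl39l resembles. They are from RefSeq on GRCm38.p6, 5′ to 3′ on the gene's strand, with CCGGAA, or CCGCCC as the reverse complement of the SP1 box, in capitals.
Rpl39l, chr16:10169978-10170227, plus strand: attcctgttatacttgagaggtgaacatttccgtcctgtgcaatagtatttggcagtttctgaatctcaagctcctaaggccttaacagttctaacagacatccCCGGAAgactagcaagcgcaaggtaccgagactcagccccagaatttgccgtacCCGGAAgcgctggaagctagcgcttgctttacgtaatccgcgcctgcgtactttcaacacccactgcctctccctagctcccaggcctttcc
Rpl39, chrX:37085223-37085472, minus strand: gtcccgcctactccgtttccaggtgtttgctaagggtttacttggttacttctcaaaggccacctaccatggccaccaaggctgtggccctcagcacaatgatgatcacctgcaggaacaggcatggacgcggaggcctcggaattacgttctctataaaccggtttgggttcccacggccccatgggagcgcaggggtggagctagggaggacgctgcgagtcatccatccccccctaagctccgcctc
Rpl22l1, chr3:28805258-28805507, plus strand: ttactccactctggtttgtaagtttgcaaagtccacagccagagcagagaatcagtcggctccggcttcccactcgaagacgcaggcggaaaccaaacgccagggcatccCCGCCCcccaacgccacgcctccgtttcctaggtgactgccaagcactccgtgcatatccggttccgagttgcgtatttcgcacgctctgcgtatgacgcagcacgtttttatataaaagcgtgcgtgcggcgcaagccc
Rpl39l and Rpl39 hold 12 CG dinucleotides each in these bases and Rpl22l1 holds 23, against the median of 18 in the members' windows. Methylation and factor binding were not measured.

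Rps19bp1 was higher in LLC, with 9.24 and 10.07 in LLC EGFP-high, against 8.001 and 9.05 in colon26 EGFP-high, and with 8.81 and 9.58 in LLC EGFP-low, against 7.98 and 8.56 in colon26 EGFP-low. The difference was 1.13 ± 0.18 and 0.92 ± 0.18 (log2, SE; adjusted p = 0.0018 and 0.0042), and without the replicate block the adjusted p was 0.24 and 0.29. Other calls were smaller. Rpl37, a large-subunit protein, was lower in LLC by differences of −0.61 in EGFP-high and −0.59 in EGFP-low cells. In EGFP-low cells, Rpl11 (0.76), the stalk protein Rplp0 (0.61) and Rps7 (0.48) were called higher in LLC and Rps3, a protein at the mRNA entry of the small subunit, lower (−0.49). In EGFP-high cells these 4 had differences of 0.25, 0.50, 0.45 and −0.45 and adjusted p-values of 0.39, 0.052, 0.055 and 0.059; whether the sorts differ was tested only as the change in LLC minus that in colon26, in which no member passed. The calls of Rpl37, Rps9, Rps3, Rps7 and Rplp0 were each lost under 4 or more alternatives, and that of Rpl11 under 3.

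For Rps9 the direction depended on the probe set. Its representing probe set had 10.77 and 13.22 in LLC EGFP-high, against 11.73 and 13.64 in colon26 EGFP-high, a difference of −0.69 ± 0.20 (log2, SE; adjusted p = 0.027). Another Rps9 probe set, named after its values were seen, had 11.15 and 11.31 in LLC EGFP-high, against 6.97 and 7.07 in colon26 EGFP-high, a difference of 4.21, and its difference in EGFP-low cells was 4.53. The suffix of that probe set (x) marks probes that may bind other transcripts. In EGFP-high cells 8 members had probe sets whose line differences differed in sign, among them Rpl41, from 0.00 to 1.33, and Rps24, from −0.90 to 0.11.

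Levels also differed between the arrays numbered 1 and 2. In all 4 groups Rps9, Rps19, Rps27, Rplp0 and Rpl37a were higher by more than 1 log2 on the array numbered 2, by 1.80 to 2.45 for Rps9, 1.79 to 1.98 for Rps19, 1.67 to 1.90 for Rps27, 1.61 to 1.94 for Rplp0 and 1.24 to 1.41 for Rpl37a. These are 5 of 47 members, and 6.26% of all genes tested shifted in this way; 0 members and 0.821% of all genes were lower to that extent. The arrays numbered 1 and 2 are also those whose control transcripts differed in 3′ minus 5′ signal, and the part of that in the shift was not tested. Within pairs, the median EGFP-high minus EGFP-low change of the members was 0.01 log2 over the arrays numbered 1 and 0.04 over those numbered 2 in LLC, against 0.05 and 0.03 over all genes tested. In colon26 it was 0.02 and 0.09, against 0.02 and 0.18 over all genes.

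**Figure D5:**
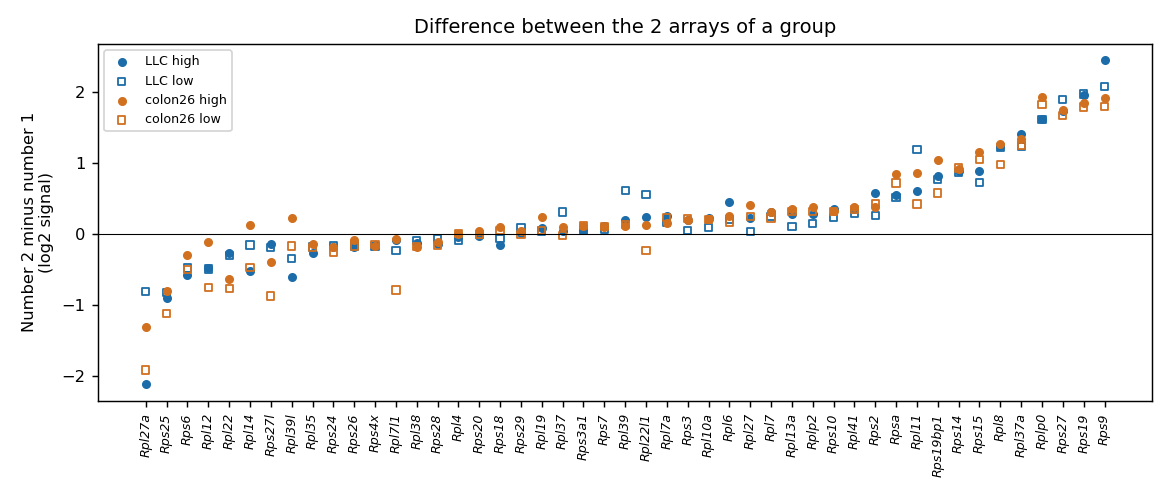
Array numbered 2 minus array numbered 1 (log2 signal) of each of the 47 genes in the 4 groups, genes ordered by the median of the groups. The median ran from −1.62 in Rpl27a, whose points spread from −2.12 to −0.82, to 2.00 in Rps9, whose points lie at 1.80 to 2.45.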

How the data were processed

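Total RNA of the sorted cells was labelled from 6 ug and hybridised, per the labels, to Affymetrix mouse arrays, which have 1 colour. Per the submitters' processing notes the authors ran RMA, and the values they deposited are log2 signals. The version of RMA, and whether both lines were normalized in 1 run, is not given in the sources used here. Descriptions of the colon26 samples say LLC, but title, source name and cell line say colon26, which was followed. Of 45101 probe sets, 34945 had a single gene symbol, 932 had several and 9160 had none, beside 64 controls; only those with 1 were used for genes, and 34741 of their gene IDs were found in RefSeq.

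From these values, limma 3.58.1 in R 4.3.3 was fitted to all 8 arrays and the 12177 genes with a log2 signal above 5 on at least 2 arrays, with Benjamini-Hochberg adjustment over all of them. EGFP contrasts were blocked on line and replicate number together (residual degrees of freedom: 2), and line contrasts on a replicate number shared by the lines (3). Moderation over all genes added prior degrees of freedom of 8.2 in EGFP contrasts and 5.2 in line contrasts. Differences between numbers correlated across genes with r = 0.887 between the sorts of LLC, 0.838 between those of colon26, and 0.740 to 0.838 across lines. Each array was closest to the array of its own line and number. The line contrasts treat the EGFP-high and EGFP-low arrays of a line and number as independent. Calls between the lines in EGFP-high and in EGFP-low cells are therefore not separate evidence. As the lines share no tumour, these correlations cannot show whether EGFP-high and EGFP-low arrays of a number came from 1 sample. The scripts were tested on simulated data. Changes are log2 differences, and ± is the standard error.

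Members and gene lists were chosen with earlier results of these data known. Genes named were, per contrast, up to 6 called members in each direction (where fewer than 3 passed, the 3 highest and 3 lowest as values), members of fixed role lists, up to 4 called genes by smallest p of each other list (or the 2 of highest mean), and Gins1; Rpl38, the probe sets named, and the genes with probe sets of opposite sign or a shift between numbers were picked with their values known. Alternatives tried were the fit without the block, a shared block, no filter or a filter of 7, quantile normalization, median centring, trend with robust moderation, other probe set choices, and leaving out each replicate. Promoters came from RefSeq on GRCm38.p6. Plots used matplotlib 3.10.9 and Python 3.11.15.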

Additional observations from a re-analysis of the deposited data

How the results depend on the processing

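With 2 arrays a group, the typical 95% interval of a member's change reached 0.39 log2 to either side in a line, which limits what could be called. Without the replicate block, which ignores the pairing by number, 0 members passed in each EGFP contrast, and 2 instead of 7 passed between the lines in EGFP-high and 3 instead of 10 in EGFP-low cells. In the EGFP contrasts a count other than 0 arose in LLC with every probe set fitted separately (1), and in the mean of the lines with every probe set, with the mean of all probe sets and without colon26 replicate 1 (1 each); leaving out replicates gave 0 to 1. The median change of the members was 0.050 in LLC after quantile normalization, and after median centring 0.123 in colon26 and 0.077 in the mean of the lines. The median of the LLC change minus the colon26 change was 0.019 after quantile normalization, −0.105 after median centring, −0.0728 to 0.00582 without a replicate, and −0.079 over the arrays numbered 2 alone, a choice made after seeing the data.

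Between the lines, counts in EGFP-high cells were 12 without the filter, 16 with trend and robust moderation, 11 with the mean of all probe sets and 14 with every probe set. In EGFP-low cells they were 18, 17 and 18 under the last 3, and 5 to 7 without a replicate. The median LLC minus colon26 difference in EGFP-high cells was −0.042 after quantile normalization, 0.052 after median centring, −0.079 without the filter, −0.075 with the mean of all probe sets, −0.037 with every probe set, −0.112 without probe sets of suffix s or x, and −0.077 to −0.051 without a replicate. In EGFP-low cells it was −0.0533 after quantile normalization, 0.165 after median centring, −0.0302 without the filter, 0.042 with every probe set, −0.064 without suffix s or x, −0.0548 to −0.00858 without a replicate, and −0.00420 over the arrays numbered 1 alone. Median centring moved the medians of all genes too, to 0.03 in EGFP-high and 0.12 in EGFP-low cells, against −0.09 and −0.07 as deposited. Rps9 reversed in EGFP-high cells with the mean of all probe sets, to 1.01 (adjusted p = 0.0031), where its probe sets differ in sign. Rpl22l1 kept its call in both sorts under every alternative that left 2 arrays in each group.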

Other observations

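The probe sets annotated to a ribosomal protein gene together with other genes were looked at after the data were seen, since they cover 31 ribosomal protein genes that have no probe set of their own. Of 110 such probe sets, 102 passed the signal filter. Added to the fit as units of their own, 0 were called between EGFP-high and EGFP-low in LLC and 0 in colon26 by limma, with 2 and 1 at an unadjusted p under 0.05, and 1 rose in the mean of the lines. Their median change was −0.04 log2 in LLC and 0.05 in colon26. Between the lines, 7 were higher and 5 lower in LLC in EGFP-high cells, and 11 higher and 4 lower in EGFP-low cells, while 39.2% and 46.2% of the 12177 genes tested were called in either direction. Which of the listed genes such a probe set reports cannot be told apart.

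Some other genes of translation differed between the lines in both sorts. Eif4b, a helper of the Eif4a helicase, was higher in LLC by 1.77 ± 0.17 in EGFP-high and by 1.60 ± 0.17 in EGFP-low cells (log2, SE; limma adjusted p = 9.3e-05 and 0.00017). Ddx21, a nucleolar RNA helicase, was higher in LLC by 1.38 ± 0.23 and 1.64 ± 0.23 (adjusted p = 0.0021 and 0.00080). Of 38 ribosome biogenesis genes, 5 were higher and 3 lower in LLC in EGFP-high cells, and 5 higher and 6 lower in EGFP-low cells, with medians of 0.18 and −0.08; 39.2% and 46.2% of all genes were called.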
